A study of Mus musculus with 6 samples.

Results

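The amino acid transporter genes of the solute carrier (SLC) families 1, 3, 6, 7, 36, 38 and 43 were followed in colon tissue of mice with colitis, with and without a gut bacterium. Members were chosen by gene symbol alone, as the rows whose symbol begins with Slc1a, Slc3a, Slc6a, Slc7a, Slc36a, Slc38a or Slc43a and a number. The rule took 63 of the 18477 genes in the table. Of these 63, Slc7a6os and Slc6a19os match only through their symbols and are named as genes on the strand opposite to a transporter gene. RNA came from the colon of male C57BL/6 mice aged 6 to 8 weeks, and both groups drank 2% (w/v) dextran sulfate sodium (DSS), which injures the colon epithelium, on days 8 to 14. The DSS group received PBS by gavage each day for 14 days, and the DSS+BV group received the gut bacterium Bacteroides vulgatus, an ATCC strain, by gavage each day over the same 14 days. Each group has 3 mice, with 1 library per mouse, and no library here comes from a mouse without DSS, so no value below shows what DSS itself did. The study allocated mice to groups at random, and the region of the colon that was taken is not given in the sources used here. The question asked of the members is whether their transcript levels differed between DSS+BV and DSS colon.

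Amino acid transporters carry amino acids, and in some cases creatine, taurine or monoamines, across the plasma membrane or the membrane of lysosomes. SLC1, SLC6 and SLC38 proteins couple uptake to the sodium gradient, SLC36 proteins couple it to protons, and most light chains of SLC7 exchange one amino acid for another after pairing with a heavy chain of SLC3. In the gut epithelium they serve absorption from the lumen, release into the blood and supply of glutamine and glutamate to the cells themselves. Several of their genes are known targets of ATF4, the transcription factor that answers amino acid shortage, and Slc7a11, the cystine carrier, also answers oxidative stress.

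The 6 libraries held between 15293263 and 17254329 counts after the expected counts were rounded to whole numbers, and the members together took 0.281% to 0.346% of them. Levels are given as CPM, in which each count is expressed per fixed number of counts in its library, with TMM factors that align the bulk of genes between libraries. Defining markers of the colon epithelium were present in every library, with a summed level of 12988 to 15443 CPM in DSS and 16318 to 21704 CPM in DSS+BV for 12 genes. In bulk tissue, fewer cells of a type and less RNA per cell cannot be told apart. The makeup of the libraries differed between the groups. All 12 epithelium markers had higher estimates in DSS+BV, and every DSS+BV sum lay above every DSS sum. All 9 neutrophil markers had lower estimates in DSS+BV, with sums of 269 to 1122 CPM in DSS and 49.7 to 375 CPM in DSS+BV. The 6 fibroblast markers summed to 1480 to 2100 CPM in DSS and 842 to 1171 CPM in DSS+BV, and the 9 macrophage and monocyte markers to 715 to 1666 and 465 to 1213 CPM. Libraries also differed in Hox genes, whose levels change along the length of the colon. The proximal gene Hoxb8 was at 0.539, 0.808 and 0.582 CPM in DSS libraries 1, 2 and 3, and 0.528, 11.5 and 16.8 CPM in DSS+BV libraries 1, 2 and 3. DSS+BV 2 and DSS+BV 3 therefore stood apart from the other 4 libraries in this gene, which was picked after its values were seen. Of the 5 tested proximal Hox genes, 4 had higher estimates in DSS+BV and 1 a lower one. Their log2 fold changes ran from -0.72 to 3.88, with a median of 3.10, and the groups overlapped in all 5. At an adjusted p under 0.05 and a log2 fold change over 1, DESeq2 called 4 of 6 proximal Hox genes higher. It called 0.279% of all the genes that it adjusted higher. The 7 distal Hox genes summed to 58.9 to 344 CPM in DSS and 14.9 to 340 CPM in DSS+BV, lowest in DSS 2 and in DSS+BV 3. The part of these differences in the results below was not tested. Values fitted with a marker score as a covariate are given as descriptions, since each score comes from the same 6 libraries.

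Levels of different genes were compared per kb of exon, as CPM divided by the summed exon length. Slc6a14, the epithelial carrier of neutral and cationic amino acids, stood first at a mean of 261 CPM per kb (166 to 364) over the 6 libraries. It was followed by the creatine transporter Slc6a8 at 81.5 CPM per kb (35.4 to 124) and the glutamine carrier Slc1a5 at 42.2 CPM per kb (29.1 to 56.0). Next came Slc38a2, a sodium-coupled carrier of small neutral amino acids, at 29.8 CPM per kb (24.0 to 36.2), the taurine transporter Slc6a6 at 27.2 CPM per kb (14.7 to 42.2) and the heavy chain Slc3a2 at 23.7 CPM per kb (20.9 to 29.3). The ranges of Slc1a5, Slc38a2, Slc6a6 and Slc3a2 overlapped with those of their neighbours in this order, and the range of Slc6a14 did not overlap with that of any other member. In total, 12 tested members had a mean of at least 10 CPM per kb. The lowest tested member, the glutamate transporter Slc1a2 that is best known from astrocytes, had a mean of 0.0507 CPM per kb (0.0182 to 0.10).

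**Figure D1:**
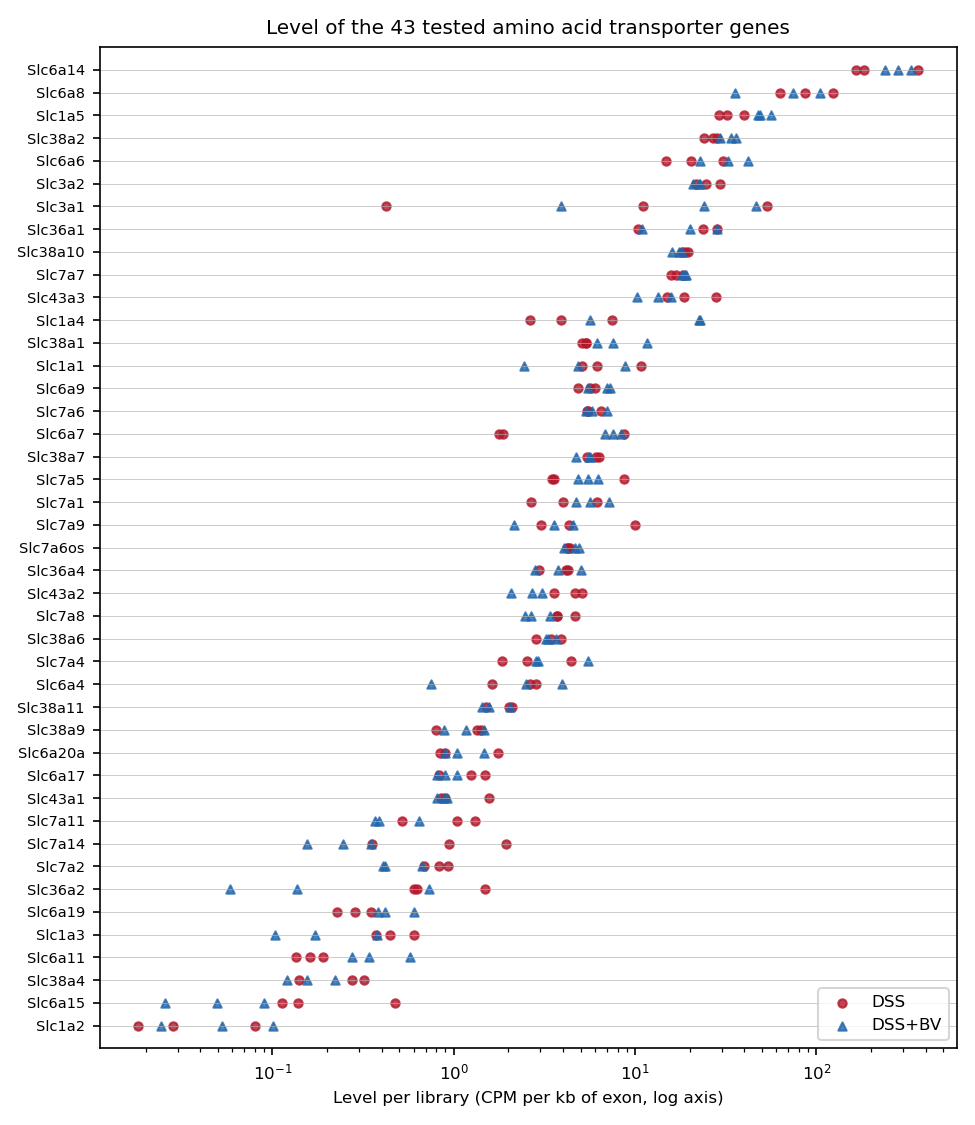
Levels of the 43 tested members in CPM per kb of exon on a log axis, with a red circle for each DSS library and a blue triangle for each DSS+BV library. Slc6a14 lies to the right of all other genes in every library, and Slc3a1 covers the widest range.

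Of the 63 members, 47 had a count in every library, 16 were at 0 in at least 1 library, and Slc6a20b, a close relative of the imino acid carrier Slc6a20a, and the orphan Slc6a21 were at 0 in all 6. The filter on low counts removed 20 members. Among them were Slc1a6 and Slc1a7, the SLC7 genes Slc7a3, Slc7a10, Slc7a13 and Slc7a15, Slc36a3, Slc38a3, Slc38a5, Slc38a8, Slc6a19os, and the SLC6 genes Slc6a2, Slc6a3, Slc6a5, Slc6a12, Slc6a13, Slc6a16, Slc6a20b and Slc6a21. The highest mean of a removed member was 8.50 counts, and 16 of the 20 stayed at 10 counts or fewer in every library. Transporters of noradrenaline (Slc6a2), dopamine (Slc6a3) and glycine in neurons (Slc6a5) are among the genes below the filter of the edgeR fit at this depth. In the RefSeq annotation 28 of the 63 members overlap another gene, among them Slc7a14, Slc6a15, Slc6a11, Slc38a1, Slc6a8, Slc6a6 and Slc6a19, and reads of overlapping genes may be assigned to either, since the use of strand in counting is not given in the sources used here.

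No member passed the test of edgeR's quasi-likelihood fit at an adjusted p under 0.05 with an absolute log2 fold change over 1. This holds for 0 of 43 tested members in either direction, beside 13 lower genes among 14579 tested (0.0892%) and 0 higher genes (0%). Fold changes are DSS+BV against DSS throughout. The smallest adjusted p of a member was 0.303, for Slc43a2. At an unadjusted p under 0.05, 7 members were lower in DSS+BV and 4 higher, where 9.12% of all tested genes were lower and 3.4% higher. The 7 members make 16.3% and the 4 members 9.30% of those tested. Values of the groups did not overlap for 6 members that were lower and 5 that were higher, beside 11.3% and 6.37% of all tested genes. With the epithelium score as a covariate, 2 members were lower and 1 was higher at an unadjusted p under 0.05 in edgeR. The share of all tested genes at that threshold was not computed for this fit, so these counts have no background. Lower calls among all tested genes went from 13 to 0 with this score. The DESeq2 Wald test, the tool of the study, called Slc7a14 lower (adjusted p = 0.0419) and Slc1a4 higher (adjusted p = 0.0457), beside 280 lower (1.73%) and 45 higher genes (0.279%) of 16155 that it adjusted. With 3 mice per group, an exact two-sided permutation test of a gene cannot give a p under 0.1.

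Over the 43 tested members the median log2 fold change was -0.0097, beside -0.0105 over all tested genes. Estimates were lower in DSS+BV for 22 members and higher for 21, and ran from -2.12 for Slc6a15 to 1.86 for Slc1a4. The median size of the log2 fold change, with its sign left aside, was 0.37 over the members and 0.24 over all tested genes. All 3 SLC43 genes had lower estimates, and in the other role groups of more than 1 tested gene both directions were present. In the plot of differences by role, points far from 0 belong to Slc7a14, Slc6a15, Slc36a2 and Slc1a4, which also carry long error bars.

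**Figure D2:**
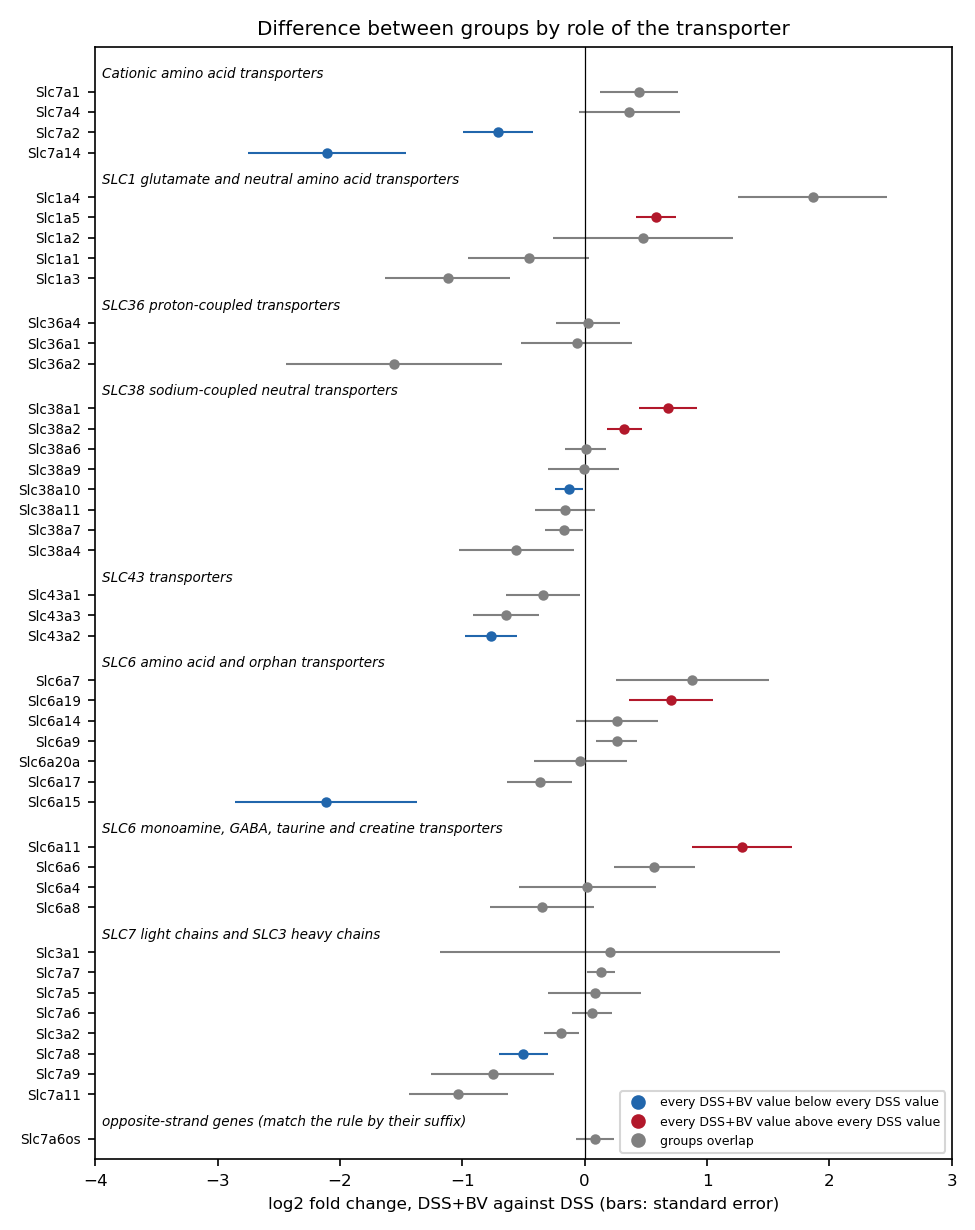
Log2 fold change of DSS+BV against DSS for the 43 tested members, grouped by role. Bars show the standard error derived from the F statistic of the edgeR test. Blue marks genes whose 3 DSS+BV values all lay below the DSS values, red those whose values all lay above, and grey those whose groups overlap.

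Among the SLC1 genes, Slc1a5 (Entrez gene 20514, chr7:16781334-16798274 on GRCm38.p6), which brings glutamine into cells, was at 135, 167 and 121 CPM in DSS libraries 1, 2 and 3, and 198, 203 and 234 CPM in DSS+BV libraries 1, 2 and 3. All DSS+BV values lay above all DSS values. The means were 141 ± 23.5 CPM (SD, n = 3) for DSS and 211 ± 19.4 CPM (SD, n = 3) for DSS+BV, a 1.5-fold higher level that did not pass after adjustment (log2 fold change 0.58, standard error 0.16, edgeR adjusted p = 0.313). The estimate stayed between 0.49 and 0.74 when 1 library was left out in turn. Slc1a4 (Entrez gene 55963, chr11:20302180-20332713), a carrier of alanine, serine and cysteine, was at 15.3, 29.5 and 10.3 CPM in DSS libraries 1, 2 and 3, and 22.2, 88.2 and 90.0 CPM in DSS+BV libraries 1, 2 and 3. DSS+BV 2 and DSS+BV 3 were far above the other 4 libraries, while DSS+BV 1 lay below DSS 2, so the groups overlapped (log2 fold change 1.86, standard error 0.61, edgeR adjusted p = 0.342). The same 2 DSS+BV libraries were the high ones for Hoxb8. The 6 proximal Hox genes summed to 40.7, 81.8 and 38.1 CPM in DSS 1, 2 and 3 and to 68.6, 149 and 184 CPM in DSS+BV 1, 2 and 3. With the proximal score as a covariate, a model chosen after the values were seen that gives a description and no test, the log2 fold change of Slc1a4 was 0.50. With 1 library left out in turn it ran from 1.58 to 2.40. The glutamate transporter of epithelium and neurons, Slc1a1, was at 89.4, 41.8 and 51.2 CPM in DSS libraries 1, 2 and 3, and 72.8, 39.8 and 20.2 CPM in DSS+BV libraries 1, 2 and 3, with overlapping groups and a log2 fold change of -0.46 (standard error 0.49). Slc1a3, known from glia, had an estimate of -1.12 (edgeR adjusted p = 0.428).

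Of the 8 tested SLC38 genes, most of which carry glutamine and other neutral amino acids with sodium, Slc38a1 and Slc38a2 were the members whose groups separated upward. Slc38a1 (Entrez gene 105727, chr15:96571418-96643438) was at 92.3, 88.3 and 91.9 CPM in DSS libraries 1, 2 and 3, and 106, 130.3 and 200.4 CPM in DSS+BV libraries 1, 2 and 3. The DSS libraries were almost level with each other and each DSS+BV library lay above them, DSS+BV 3 by the most (log2 fold change 0.68, standard error 0.24, edgeR adjusted p = 0.358). Without DSS+BV 3 the log2 fold change was 0.38. Slc38a2 was at 238, 251 and 213 CPM in DSS libraries 1, 2 and 3, and 298, 320.3 and 261 CPM in DSS+BV libraries 1, 2 and 3, also with no overlap, and a smaller estimate of 0.32 (standard error 0.14, edgeR adjusted p = 0.424). In contrast, Slc38a10 was nearly even, at 121, 125 and 117 CPM in the DSS libraries and 113, 103 and 116 CPM in the DSS+BV libraries. Its groups did not overlap, in the lower direction, at a log2 fold change of -0.13 (edgeR adjusted p = 0.662), so separation alone marks small differences too. The lysosomal arginine sensor Slc38a9 had an estimate of -0.01 with a standard error of 0.29.

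**Figure D3:**
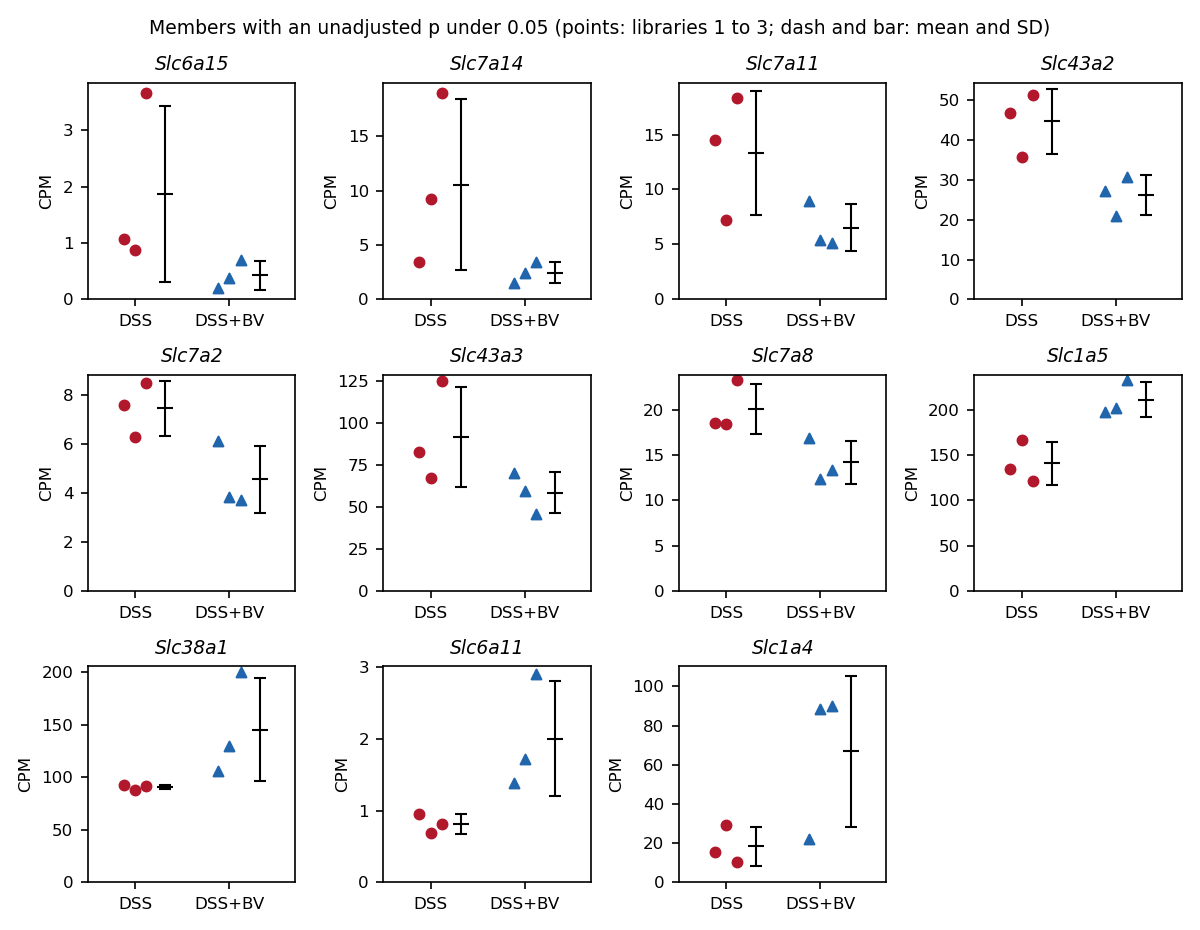
CPM of the 11 members at an unadjusted edgeR p under 0.05, on linear axes from 0, with a point per library (red DSS, blue DSS+BV) and the mean and SD beside each group. The 7 lower members come first, and Slc7a11, Slc43a3 and Slc1a4 are the 3 whose groups overlap.

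The SLC43 family carries large neutral amino acids without sodium, apart from Slc43a3, which carries purine bases. Slc43a2 (Entrez gene 215113, chr11:75529915-75577575) had the smallest p-value among the members. It was at 46.8, 35.7 and 51.4 CPM in DSS libraries 1, 2 and 3, and 27.2, 20.9 and 30.7 CPM in DSS+BV libraries 1, 2 and 3, and the highest DSS+BV library lay below the lowest DSS library. The means were 44.6 ± 8.07 CPM (SD, n = 3) for DSS and 26.2 ± 4.95 CPM (SD, n = 3) for DSS+BV, a 1.7-fold lower level (log2 fold change -0.77, standard error 0.21, edgeR adjusted p = 0.303). Its estimate kept within -0.89 and -0.62 with 1 library left out in turn. Slc43a3 (Entrez gene 58207, chr2:84936545-84958509) was at 83.2, 67.2 and 125 CPM in DSS libraries 1, 2 and 3, and 70.5, 59.8 and 45.8 CPM in DSS+BV libraries 1, 2 and 3, with DSS 3 highest and DSS 2 below DSS+BV 1 (log2 fold change -0.65, standard error 0.27, edgeR adjusted p = 0.399). Without DSS 3 its log2 fold change was -0.36. For Slc43a1 the estimate was -0.34 (edgeR adjusted p = 0.671). Mir3971, a microRNA gene, lies within the bounds of Slc43a2 in the RefSeq annotation.

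Exchangers of the SLC7 family work as pairs, each of a light chain and a heavy chain. The heavy chain Slc3a2, part of the CD98 complex, was at 87.1, 76.7 and 103 CPM in the DSS libraries and 80.8, 73.7 and 79.3 CPM in the DSS+BV libraries, with overlap and a log2 fold change of -0.19 (standard error 0.14). Its partner Slc7a5, which exchanges large neutral amino acids, was at 32.1, 12.9 and 13.3 CPM in the DSS libraries and 17.9, 20.5 and 23.2 CPM in the DSS+BV libraries. DSS 1 was its highest library, and the estimate was 0.08 (standard error 0.38). Slc7a7, the partner that releases cationic amino acids at the basolateral side, was the most even of these genes, at 56.0, 61.3 and 52.2 CPM in the DSS libraries and 62.9, 59.9 and 63.2 CPM in the DSS+BV libraries (log2 fold change 0.13, standard error 0.12, edgeR adjusted p = 0.663). It overlaps Oxa1l in the annotation. Slc7a8 (Entrez gene 50934, chr14:54722215-54781886), which exchanges neutral amino acids at the basolateral side, was at 18.5, 18.5 and 23.3 CPM in the DSS libraries and 16.9, 12.3 and 13.3 CPM in the DSS+BV libraries. All 3 DSS+BV values were below the DSS values (log2 fold change -0.50, standard error 0.20, edgeR adjusted p = 0.389).

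Cystine enters cells in exchange for glutamate through Slc7a11 (Entrez gene 26570, chr3:50364936-50499087), paired with Slc3a2, and supplies the cysteine of glutathione. Slc7a11 was at 14.5, 7.21 and 18.3 CPM in DSS libraries 1, 2 and 3, and 8.97, 5.42 and 5.12 CPM in DSS+BV libraries 1, 2 and 3. DSS 2 lay below DSS+BV 1, so the groups overlapped, and the other DSS libraries were above every DSS+BV library (log2 fold change -1.04, standard error 0.40, edgeR adjusted p = 0.387). For glutathione synthesis and use and the oxidative stress response, 15 listed genes were tested. At an unadjusted p under 0.05, 1 was lower and 2 were higher, beside 9.12% and 3.4% of all tested genes. None of the 3 encodes an enzyme that makes glutathione. The lower gene was Hmox1, which degrades haem, at 37.6, 31.2 and 44.5 CPM in the DSS libraries and 14.5, 11.2 and 10.2 CPM in the DSS+BV libraries (log2 fold change -1.66, standard error 0.21, edgeR adjusted p = 0.0833). It was lower by DESeq2 (adjusted p = 3.3e-08). The higher genes were Nqo1, a quinone reductase, with a log2 fold change of 1.68 (edgeR adjusted p = 0.388), and Nfe2l2. Nfe2l2, the transcription factor of the oxidative stress response, had a log2 fold change of 0.60 (edgeR adjusted p = 0.356).

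The pair of the apical cystine and dibasic amino acid exchanger, Slc3a1 and Slc7a9, were highest in different libraries. Slc3a1 was at 0.958, 121 and 25.0 CPM in DSS libraries 1, 2 and 3, and 8.90, 54.6 and 106 CPM in DSS+BV libraries 1, 2 and 3. Its highest library was 126-fold above its lowest, the widest range among the tested members, whose median range was 2.49-fold. The lowest and the highest library both belong to the DSS group, and the log2 fold change was 0.21 with a standard error of 1.39. Slc7a9 was at 8.08, 11.5 and 26.7 CPM in DSS libraries 1, 2 and 3, and 9.56, 5.73 and 12.1 CPM in DSS+BV libraries 1, 2 and 3, highest in DSS 3, with a log2 fold change of -0.75 (standard error 0.50). Without DSS 3 it was -0.0984. In Slc3a1 the DSS 2, DSS+BV 2 and DSS+BV 3 libraries were the high ones, as they were for the sum of the proximal Hox genes. Slc3a1 overlaps Prepl in the annotation.

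**Figure D4:**
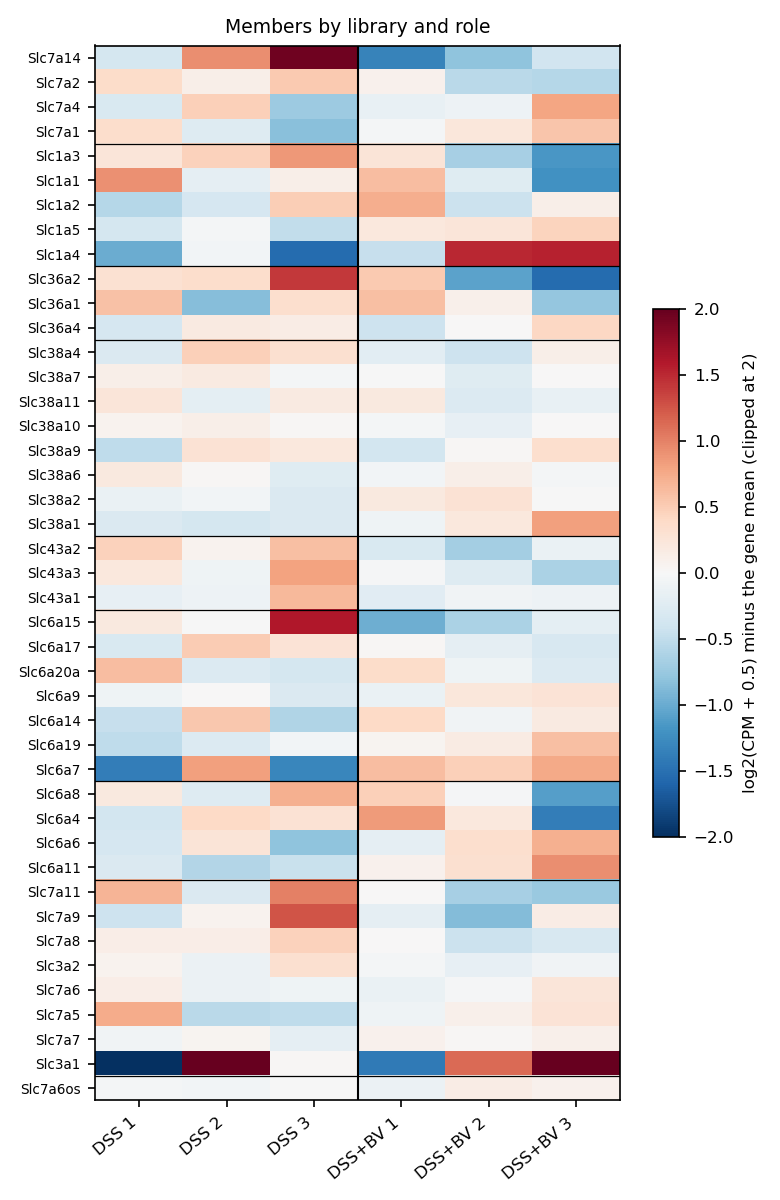
Log2 of CPM plus 0.5, minus the mean of the gene, for the 43 tested members (rows, in blocks by role) in the 6 libraries (columns), with colours cut at 2 in both directions. Slc1a4 is high in DSS+BV 2 and DSS+BV 3, and Slc3a1 is high in both of these and in DSS 2. Slc7a14 and Slc6a15 are highest in DSS 3.

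Among the cationic amino acid transporters, Slc7a2 and Slc7a14 had a lower value in each DSS+BV library than in any DSS library. Slc7a2 (Entrez gene 11988, chr8:40862341-40922070), which supplies arginine to macrophages and other cells, was at 7.60, 6.28 and 8.50 CPM in DSS libraries 1, 2 and 3, and 6.13, 3.82 and 3.73 CPM in DSS+BV libraries 1, 2 and 3. DSS+BV 1 came close to the lowest DSS library, and the groups did not overlap (log2 fold change -0.71, standard error 0.29, edgeR adjusted p = 0.394). Slc7a1, the widely expressed arginine carrier, was at 70.9, 46.4 and 30.9 CPM in the DSS libraries and 54.4, 65.0 and 82.3 CPM in the DSS+BV libraries (log2 fold change 0.44, standard error 0.32, edgeR adjusted p = 0.594). Of 16 tested genes that use arginine or glutamine, 2 were lower and 3 higher at an unadjusted p under 0.05. Over all tested genes, 9.12% were lower and 3.4% higher at this threshold. The inducible nitric oxide synthase Nos2, which consumes arginine, was at 146, 128 and 358 CPM in the DSS libraries and 33.8, 8.03 and 5.75 CPM in the DSS+BV libraries (log2 fold change -3.73, standard error 0.80, edgeR adjusted p = 0.22), and DESeq2 called it lower (adjusted p = 1.14e-05). Got1, the cytosolic aspartate aminotransferase, was at 56.1, 44.2 and 51.4 CPM in the DSS libraries and 76.9, 81.9 and 63.7 CPM in the DSS+BV libraries (log2 fold change 0.55, standard error 0.15, edgeR adjusted p = 0.312).

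Slc7a14 (Entrez gene 241919, chr3:31202854-31310567), a lysosomal protein of the cationic family that is known from neurons, was at 3.47, 9.20 and 19.0 CPM in DSS libraries 1, 2 and 3, and 1.52, 2.42 and 3.41 CPM in DSS+BV libraries 1, 2 and 3. All DSS+BV values lay below the DSS values, the closest pair being DSS 1 and DSS+BV 3. The log2 fold change of -2.10 (standard error 0.64) had an edgeR adjusted p of 0.329, and it ran from -2.53 without DSS 1 to -1.37 without DSS 3. Slc6a15 (Entrez gene 103098, chr10:103367808-103419379), a carrier of branched-chain amino acids and proline that is also known from neurons, was at 1.08, 0.870 and 3.67 CPM in DSS libraries 1, 2 and 3, and 0.198, 0.382 and 0.695 CPM in DSS+BV libraries 1, 2 and 3, which corresponds to 18, 14 and 63 counts in DSS 1, 2 and 3 and 3, 6 and 11 counts in DSS+BV 1, 2 and 3. Its groups did not overlap either (log2 fold change -2.12, standard error 0.74, edgeR adjusted p = 0.358), and without DSS 3 the log2 fold change was -1.18. All 9 enteric neuron markers had lower estimates in DSS+BV. Of these, 8 had an unadjusted edgeR p under 0.05, where 9.12% of all tested genes were lower. The 9 neuron markers summed to 57.2, 136.5 and 309 CPM in DSS 1, 2 and 3 and 33.6, 40.6 and 53.6 CPM in DSS+BV 1, 2 and 3. The log2 fold changes of the 9 markers ran from -2.38 to -1.06, with a median of -1.81. Lower estimates were not particular to neuron markers. All 6 enteric glia, 6 fibroblast and 6 endothelium markers were also lower, 3, 4 and 2 of them at that threshold. Of the smooth muscle markers 5 were lower and 2 higher, and all 12 epithelium markers were higher. The part of these differences in the values of both transporters was not tested. With the enteric neuron score as a covariate, a model chosen after the values were seen that gives a description and no test, the log2 fold change was -0.20 for Slc7a14 and -0.69 for Slc6a15. With the epithelium score instead, it was -3.26 and -3.21. Slc6a17, a neuronal carrier of the same family, was at 8.50, 15.3 and 12.8 CPM in the DSS libraries and 10.8, 9.24 and 8.35 CPM in the DSS+BV libraries, with overlap (log2 fold change -0.37, standard error 0.27, edgeR adjusted p = 0.6).

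**Figure D5:**
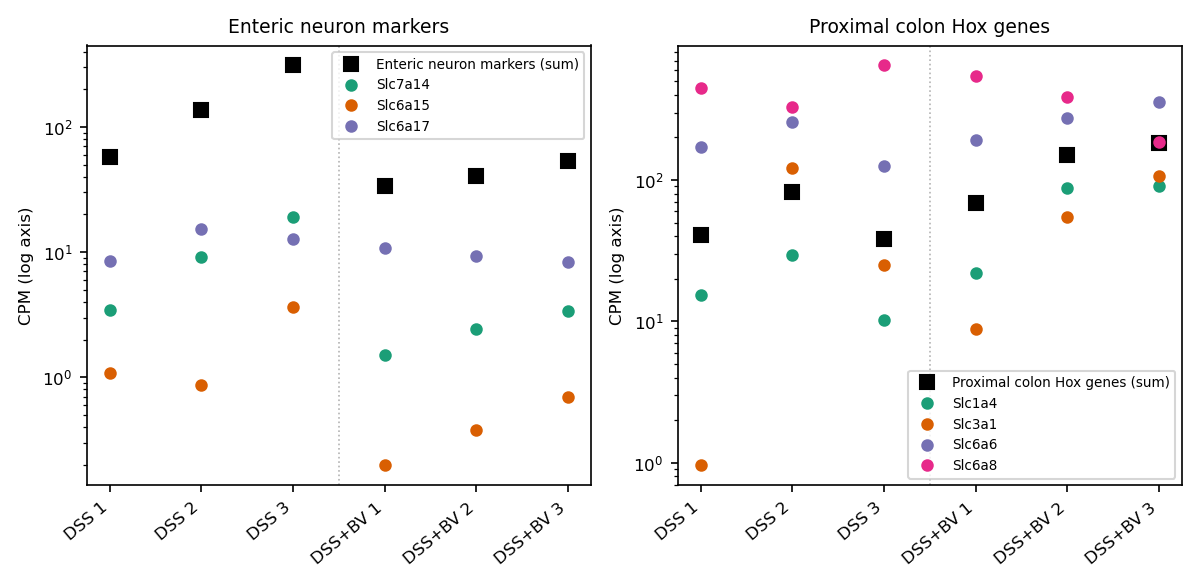
CPM on a log axis in each library, with the sum of the 9 enteric neuron markers beside Slc7a14, Slc6a15 and Slc6a17 (left) and the sum of the 6 proximal colon Hox genes beside Slc1a4, Slc3a1, Slc6a6 and Slc6a8 (right). DSS 3 is the highest library for the neuron sum, Slc7a14 and Slc6a15, and DSS+BV 3 is the highest for the proximal sum, Slc1a4 and Slc6a6. Slc6a17 and Slc3a1 are highest in DSS 2, and Slc6a8 is lowest in DSS+BV 3.

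SLC6 carriers of the epithelium gave no separation where levels were high. Slc6a14, the highest member, was at 625, 1249 and 569 CPM in DSS libraries 1, 2 and 3, and 1136, 822 and 972 CPM in DSS+BV libraries 1, 2 and 3. DSS 2 was its highest library, and the estimate was 0.26 (standard error 0.33), and 0.73 without DSS 2. Slc6a8 was at 451, 329.9 and 646 CPM in DSS libraries 1, 2 and 3, and 549, 389 and 184 CPM in DSS+BV libraries 1, 2 and 3, with the lowest value in DSS+BV 3 (log2 fold change -0.35, standard error 0.43, edgeR adjusted p = 0.763). Slc6a6 was at 172, 258 and 125 CPM in DSS libraries 1, 2 and 3, and 192, 276 and 357 CPM in DSS+BV libraries 1, 2 and 3, with overlap (log2 fold change 0.57, standard error 0.33, edgeR adjusted p = 0.519). Its log2 fold change was 0.09 with the proximal score as a covariate. That model was chosen after the values were seen and gives a description and no test. Slc6a19, the main neutral amino acid carrier of the small intestine, was low here, at 1.14, 1.43 and 1.75 CPM in DSS libraries 1, 2 and 3, and 1.91, 2.1 and 3.03 CPM in DSS+BV libraries 1, 2 and 3. Each DSS+BV library was above each DSS library, without passing the unadjusted threshold (log2 fold change 0.71, standard error 0.35, edgeR adjusted p = 0.456). Slc6a20a was at 7.19, 3.67 and 3.44 CPM in the DSS libraries and 6.0, 4.27 and 3.67 CPM in the DSS+BV libraries, and the estimate was -0.04 (standard error 0.38). Of 6 tested genes for partners of SLC6 carriers and brush border peptidases, 1 was higher at an unadjusted edgeR p under 0.05, Dpp4, with a log2 fold change of 0.49 (edgeR adjusted p = 0.345). Over all tested genes, 3.4% were higher at this threshold.

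The serotonin transporter Slc6a4, which clears serotonin released by enteroendocrine cells, was at 7.36, 12.9 and 11.9 CPM in DSS libraries 1, 2 and 3, and 17.9, 11.3 and 3.41 CPM in DSS+BV libraries 1, 2 and 3. Values spread more within DSS+BV than between the groups, and the log2 fold change was 0.02 with a standard error of 0.56. The GABA transporter Slc6a11 (Entrez gene 243616, chr6:114131241-114249886) was low, at 16, 11 and 14 counts in DSS 1, 2 and 3 and 21, 27 and 46 counts in DSS+BV 1, 2 and 3. These counts correspond to 0.958, 0.684 and 0.815 CPM in the DSS libraries and 1.39, 1.72 and 2.91 CPM in the DSS+BV libraries, with no overlap (log2 fold change 1.28, standard error 0.41, edgeR adjusted p = 0.335). The lysosomal and plasma membrane proton-coupled carrier Slc36a1 was at 158, 58.3 and 133 CPM in DSS libraries 1, 2 and 3, and 159.6, 113 and 61.8 CPM in DSS+BV libraries 1, 2 and 3, with a log2 fold change of -0.07 (standard error 0.45).

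The members that are textbook targets of ATF4 were read as a list, of which edgeR tested 8 (Slc7a3 fell below the filter). Among them, 2 were higher (Slc1a5 and Slc1a4) and 1 was lower (Slc7a11) at an unadjusted p under 0.05 in edgeR, and the median log2 fold change was 0.29, beside -0.0105 over all tested genes. Of 26 tested ATF4 targets outside transport, 4 were lower and 0 higher at the same threshold, and none was called by edgeR. Over all tested genes, 9.12% were lower and 3.4% higher at this threshold, and neither list was tested against these shares. Cebpb, a transcription factor of inflammation, was at 33.6, 25.6 and 33.3 CPM in the DSS libraries and 12.3, 14.5 and 10.2 CPM in the DSS+BV libraries (log2 fold change -1.32, standard error 0.20, edgeR adjusted p = 0.123), and DESeq2 called it lower (adjusted p = 1.66e-05). Ddit4, an inhibitor of mTORC1, had a log2 fold change of -0.84 (edgeR adjusted p = 0.329). The promoters of Slc7a11, Slc1a4 and Slc7a7 are shown because these 3 genes gave a lower, a higher and an even estimate and each holds the C/EBP-ATF response element, at which ATF4 is known to bind. Capitals mark TGATGNAA on either strand, where N is any base. Each sequence runs 5′ to 3′ on the minus strand from 250 bases before a RefSeq start to 50 after it (GRCm38.p6). The windows are chr3:50443564-50443863 for Slc7a11, chr11:20332664-20332963 for Slc1a4 and chr14:54417895-54418194 for Slc7a7. For each gene 1 window is shown, and those of Slc7a11 and Slc7a7 lie within the bounds of the gene. A second Slc7a7 window with a match, chr14:54417653-54417952, is not shown.
Slc7a11: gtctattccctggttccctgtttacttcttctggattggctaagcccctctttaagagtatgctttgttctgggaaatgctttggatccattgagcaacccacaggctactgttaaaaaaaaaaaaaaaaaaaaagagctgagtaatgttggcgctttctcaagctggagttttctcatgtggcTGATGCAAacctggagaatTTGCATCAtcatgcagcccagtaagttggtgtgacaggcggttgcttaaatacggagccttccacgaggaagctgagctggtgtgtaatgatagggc
Slc1a4: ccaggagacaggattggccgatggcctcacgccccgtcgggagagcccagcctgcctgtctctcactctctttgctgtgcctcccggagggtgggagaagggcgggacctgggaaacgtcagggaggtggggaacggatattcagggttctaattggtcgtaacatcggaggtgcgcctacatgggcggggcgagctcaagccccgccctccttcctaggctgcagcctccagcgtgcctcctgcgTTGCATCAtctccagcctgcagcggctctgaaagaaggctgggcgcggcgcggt
Slc7a7: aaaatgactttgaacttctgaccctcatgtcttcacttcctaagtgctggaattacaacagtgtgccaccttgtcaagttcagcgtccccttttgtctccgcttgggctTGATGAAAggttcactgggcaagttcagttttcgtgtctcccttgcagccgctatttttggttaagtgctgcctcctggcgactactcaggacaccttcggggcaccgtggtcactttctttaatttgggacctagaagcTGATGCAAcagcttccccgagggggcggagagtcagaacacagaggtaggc
The matches begin 66 and 47 bases before the start in Slc7a11, 4 bases before it in Slc1a4, and 141 bases and 1 base before it in Slc7a7. Of 47 members with promoter sequence, 4 hold a match in at least 1 window, the other being Slc6a21. Of all 32851 promoter windows, 3.97% (1304) hold one. The first share counts genes, which can have several windows, and the second counts single windows, so they are not directly comparable. A match describes the letters and shows no binding.

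Of the other amino acid and peptide carriers (families outside the rule, 18 tested of 24), 0 were lower and 0 higher at an unadjusted p under 0.05 in edgeR. The proton-coupled peptide carrier Slc15a1 came closest, at 54.1, 50.1 and 139 CPM in the DSS libraries and 38.5, 23.3 and 3.73 CPM in the DSS+BV libraries (log2 fold change -1.89, standard error 0.80, edgeR adjusted p = 0.401), followed by Slc15a2, at 4.61, 2.11 and 0.408 CPM in the DSS libraries and 3.03, 11.9 and 14.7 CPM in the DSS+BV libraries (log2 fold change 2.05, standard error 0.88, edgeR adjusted p = 0.407). Of 20 aminoacyl-tRNA synthetases of the cytosol, which charge tRNA with the amino acids taken up, 14 had higher and 6 lower estimates, and 0 passed an unadjusted p under 0.05 in edgeR. Of 25 genes of amino acid sensing and mTORC1, 10 had lower and 15 higher estimates, and 3 were lower and 0 higher at an unadjusted p under 0.05 in edgeR, where 9.12% of all tested genes were lower. Castor1, which senses arginine, was at 3.71, 3.23 and 4.02 CPM in the DSS libraries and 2.31, 2.04 and 2.34 CPM in the DSS+BV libraries (log2 fold change -0.71, standard error 0.26, edgeR adjusted p = 0.366), and its relative Castor2 had a log2 fold change of -0.91 (edgeR adjusted p = 0.37).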

How the data were processed

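RNA-seq of colon from 3 DSS and 3 DSS+BV mice was analysed from the deposited table of expected counts per gene, which the authors made with RSEM after alignment to GRCm38.p6. HISAT2 2.1.0, Bowtie2 2.2.5 and RSEM 1.2.8 are named in the submitters' processing notes, and whether counting used strand is not given in the sources used here. Fractional values occur in 3 members (Slc3a2, Slc7a14 and Slc38a6).

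Expected counts were rounded, filtered with filterByExpr (minimum count 10, minimum total 15), scaled with TMM factors and tested with edgeR 4.0.16 (quasi-likelihood test; R 4.3.3). The p-values were adjusted after Benjamini-Hochberg over 14579 genes. Standard errors are the size of the log2 fold change divided by the square root of the F statistic of the quasi-likelihood test. Genes were called at an adjusted p under 0.05 if the log2 fold change exceeded 1 in size. DESeq2 1.42.0, used by the study, was an alternative. Other alternatives were the scaling, the filter, a robust fit, the replicate number as a block, marker scores as covariates and each library left out. The edgeR script was tested on simulated data. Within a group, libraries differed by a chi-square of 43.7 to 124.9 per degree of freedom, far above sampling noise.

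The members and lists were chosen with earlier results of these data known. Members named with values were the 10 highest in mean CPM, the 10 with the smallest p, those called, those separated with an absolute log2 fold change over 0.5, and a set of known roles. Up to 2 genes with the smallest p were named per list. Slc1a2, Slc1a3, Slc7a1, Slc6a17, Slc36a2, Slc38a9 and Slc43a1, and Nqo1 and Hoxb8 outside the members, were added after their values were seen. Results of 1 further member below the filter and of 1 further gene of another list are not reported here. Exon lengths came from GENCODE, and promoters and positions from RefSeq (GRCm38.p6). Plots were made with matplotlib 3.10.9 in Python 3.11.15.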

Additional observations from a re-analysis of the deposited data

How the results depend on the processing

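The number of called members depended on the test. DESeq2 called 280 lower and 45 higher genes, 1 lower and 1 higher member among them, and its median log2 fold change was 0.0111 over the 43 members tested by edgeR and -0.15 over the 61 that it fitted, which include members with low counts. With every gene that has a count, the edgeR median over 61 members was -0.14, and over the 43 members it was -0.0862 with the distal colon score as a covariate. The replicate numbers were not taken to pair the mice. Correlations of deviations were 0.27, 0.25 and -0.30 between same-numbered libraries, and ran from -0.57 to 0.48 between libraries of different number. Deviations within a group are tied to each other, so these values cannot settle whether mice were paired. With the replicate block, 0 genes were called lower and 4 members were lower at an unadjusted p under 0.05. With the epithelium score as a covariate, 0 genes were called lower, and 2 members were lower and 1 higher at that threshold. The same counts were 0, 2 and 0 with the proximal colon score, and 0, 0 and 1 with the enteric neuron score, both added after the data were seen. Shares of all tested genes at that unadjusted threshold were not computed for the alternatives, so their member counts have no background. With 1 library left out in turn, lower calls ran from 0 to 3 and higher calls from 0 to 4. Members at an unadjusted p under 0.05 ran from 2 to 9 lower and from 2 to 5 higher, members without overlap from 7 to 12 lower and from 5 to 12 higher, and the median from -0.162 to -0.0263 over the 44 to 46 members then tested. With 1 library fewer, the groups of a gene separate more often by arrangement alone. The counts without overlap can therefore not be set beside those from all 6 libraries. The cause of the other changes was not tested.

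Of 441 values of named members under the alternatives, 32 changed sign, all in 8 members, and 18 of the 26 tested named members had none. Slc6a4 turned to -0.0286 with upper-quartile factors, -0.21 with the replicate block and -0.12 with the distal score. Slc6a20a turned to 0.0142 with the replicate block, 0.69 with the epithelium score, 0.0669 with the distal score and 0.40 with the proximal score. Slc36a1 turned to 0.16, 0.15 and 0.53 with the epithelium, distal and proximal scores, Slc1a1 to 0.21 and 0.26 with the epithelium and proximal scores, and Slc3a1 to -1.21 and -2.07 with the same 2. Slc6a8 turned to 0.14 with the proximal score, and Slc7a5 and Slc7a9 to -0.51 and 0.49 with the enteric neuron score. With 1 library left out, Slc36a1 ran from -0.40 to 0.23, Slc6a20a from -0.24 to 0.39, Slc6a4 from -0.53 to 0.45, Slc7a5 from -0.13 to 0.65 and Slc3a1 from -0.62 to 2.11. Members removed by the filter are limited by depth.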

Other observations

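Members below the filter were not tested by the main edgeR fit, and their counts are given as they stand. The DESeq2 Wald test called neither of the 2 named here (adjusted p = 0.291 for Slc6a2 and 0.864 for Slc7a15). The noradrenaline transporter Slc6a2 had 13, 19 and 4 counts in DSS 1, 2 and 3 and 4, 1 and 0 counts in DSS+BV 1, 2 and 3. Slc7a15 had 1, 14 and 2 counts in the DSS libraries and 0, 10 and 21 counts in the DSS+BV libraries.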
